A study of Mus musculus with 6 samples.

Results

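The 395 cells described here are the microglia that the study's authors placed in their cluster 3, and they were chosen by the deposited cell type label and the deposited cluster number. They make up 395 of 2721 microglia and of 3005 cells in all. They came from 4 of the 6 libraries, with 139 cells from the non-shocked library, 64 from the acute non-helpless, 112 from the acute helpless and 80 from the chronic non-helpless library. Set against the other microglia, ribosomal protein transcripts were a smaller share of their total, transcripts held in the nucleus and transcripts of long genes were a larger share, and the total was lower. The authors' clusters were made from these same counts, so the differences between cluster 3 and other microglia are descriptions and carry no test.

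Microglia are the resident macrophages of the brain, known by the purinergic receptor P2ry12, the transmembrane protein Tmem119, the chemokine receptor Cx3cr1 and the growth factor receptor Csf1r. Ribosomal protein mRNAs are short, spliced, abundant and mostly cytoplasmic, whereas long noncoding RNAs such as Malat1 and the unspliced transcripts of long genes reside mainly in the nucleus. The 4 genes named as markers of the cluster are Slc8a1, a sodium and calcium exchanger of the plasma membrane, Cacnb2, an auxiliary subunit of voltage-gated calcium channels, Nav2, a navigator protein of the cytoskeleton, and Pard3b, a cell polarity scaffold.

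Live CD45+ cells were sorted from hippocampi of mice whose strain is given as BC57BL/6, and their RNA was counted with 5′ Chromium libraries, 1 per group. Non-shocked mice received no footshock. In the acute paradigm 180 inescapable shocks of 0.3 mA were followed by a test of 30 trials of 24 s, and mice were sorted by outcome into helpless and non-helpless. In the chronic paradigm the test was repeated weekly for 3 weeks, and the groups were non-helpless, non-recovered (still helpless) and recovered (no longer helpless). Age, sex and the number of mice pooled in a library are not stated in the labels. With 1 library per group, cells are not replicates of a condition, and no test between groups was possible.

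The 6 libraries held 14097425 unique molecular identifiers (UMIs, counted RNA molecules). The authors' batch column gives batch 1 for the acute helpless library, batch 2 for the acute non-helpless, batch 3 for the 3 chronic libraries, and both 2 and 3 for the non-shocked library. Group and batch cannot be told apart for either acute library. Of all cell barcodes, 5 occurred in more than 1 library and 0 of these belonged to a cluster 3 microglia. Scrublet, a doublet caller, marked 56 of 3005 cells, 9 of them in cluster 3. The deposited cluster 3 also held 17 T cells, 4 monocytes, 2 NK cells and 1 macrophage by the authors' labels, which are not members.

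Cluster 3 took 25.2% of microglia in the non-shocked library (exact Clopper-Pearson 95% interval 21.6 to 29.0%), 11.2% in the acute non-helpless (8.77 to 14.1%), 17.8% in the acute helpless (14.9 to 20.99%) and 16.0% in the chronic non-helpless library (12.9 to 19.6%). All intervals given here cover counting error only. The chronic non-recovered library had 0 of 99 microglia in cluster 3, a share of up to 3.03% at a limit of 3 counts (exact upper end 3.66%). The chronic recovered library had 0 of 372, up to 0.806% at that limit (exact upper end 0.987%). Within the non-shocked library the share depended on the batch. In batch 3 it was 32.2% (138 of 429, 27.8 to 36.8%), whereas in batch 2 it was 0.813% (1 of 123), and 122 of those 123 microglia carried the cluster number 6.

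Cluster 6 was the number carried by the cells most like cluster 3 where cluster 3 itself was absent. It held 58 of 99 microglia of the chronic non-recovered library (58.6%, 48.2 to 68.4%), 46 of 372 of the chronic recovered (12.4%, 9.20 to 16.1%) and 131 of 552 of the non-shocked library. On the authors' map, the 15 nearest microglia were sought in the 4 libraries with cluster 3, the cell's own library left out. Of these libraries only the non-shocked one holds cluster 6 cells. Its own cells could therefore have no cluster 6 neighbours, and cells of other libraries only those 131. The neighbours were mostly of cluster 3 for 44 of the 58 cluster 6 cells of the non-recovered library (75.9%). They were so for 33 of the 46 of the recovered (71.7%) and for 98 of the 131 of the non-shocked library (74.8%). The same held for 133 of 139, 39 of 64, 87 of 112 and 70 of 80 cluster 3 cells of the non-shocked, the acute non-helpless, then the acute helpless and chronic non-helpless libraries, the order in which values by library are given below. In clusters 1, 2, 4 and 5 it held for 0 to 7.37% of cells. Shares of the number 3 alone are therefore not comparable across all 6 libraries. A count that does not use the clusters, of microglia with under 2.5% ribosomal protein UMIs, gave 40.4% in the non-shocked, 8.79% in the acute non-helpless, 15.9% in the acute helpless, 15.6% in the chronic non-helpless, 53.5% in the chronic non-recovered and 8.87% in the chronic recovered library. Of these 537 cells, 344 were in cluster 3, 168 in cluster 6 and 25 elsewhere. This share too depended on the batch within the non-shocked library. It was 64.2% in batch 2 (79 of 123) and 33.6% in batch 3 (144 of 429), the batch of the chronic libraries.

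Cells of cluster 3 were shallow. Their median was 2290 UMIs in the non-shocked, 1573 in the acute non-helpless, 1536.5 in the acute helpless and 1988 in the chronic non-helpless library, against 3866, 3845, 4406 and 4482 UMIs in the other microglia of the same libraries. The median was lower in cluster 3 in each of the 4 libraries, at 0.592, 0.409, 0.349 and 0.444 of the level of the others. The others of the non-shocked library pool cluster 1, at 4946.5 UMIs, with clusters 4 and 6, which were shallower than cluster 3 at 969 and 929 UMIs. In the chronic non-recovered and recovered libraries cluster 6 had medians of 1787 and 2072.5 UMIs. The median number of genes per cell in cluster 3 was 1406, 1060.5, 1005.5 and 1274 in the same order. Thinned to 500 UMIs a cell, which left out 40 shallower other microglia of the non-shocked library and 0 cells elsewhere, the number of genes per cell was no lower in cluster 3, with medians of 391, 399, 389.5 and 401 against 375, 369, 366 and 373.

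The ribosomal protein share of UMIs was lower in cluster 3. The median per cell was 0.941%, 1.34%, 0.979% and 0.911% in cluster 3, in library order, against 4.92%, 7.40%, 6.73% and 5.94% in the other microglia. Summed over cells the share was 1.32%, 5.15%, 4.53% and 1.79%, against 5.43%, 7.90%, 7.17% and 6.37%. The summed share was lower in cluster 3 in each library, but in both acute libraries it lay far above the median of the cells. Thinned to 500 UMIs a cell, the share was 1.12%, 2.46%, 1.79% and 1.27% in cluster 3 and 4.94%, 7.68%, 7.06% and 6.30% in the others.

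A few deep barcodes held much of the sum. In cluster 3, 30 of 395 barcodes had 5000 UMIs or more (6, 4, 17 and 3 in library order), and they held 33.1% of the UMIs of the cluster, 59.2% in the acute helpless library. Their ribosomal protein share was 6.70%, near that of the other microglia, against 1.27% in the remaining 365 barcodes. Without them the summed share was 1.03%, 2.68%, 0.943% and 1.16%. The groups of cells still overlapped, since 193 of 2326 other microglia were also under 2.5%. Values without the deep barcodes, an alternative chosen after seeing the data, are given below for the main comparisons. Against the other microglia, the deep barcodes were left out of cluster 3 alone. The others kept theirs, 680 of 2326 cells with 44.3% of their UMIs, so depth was not matched.

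**Figure D1:**
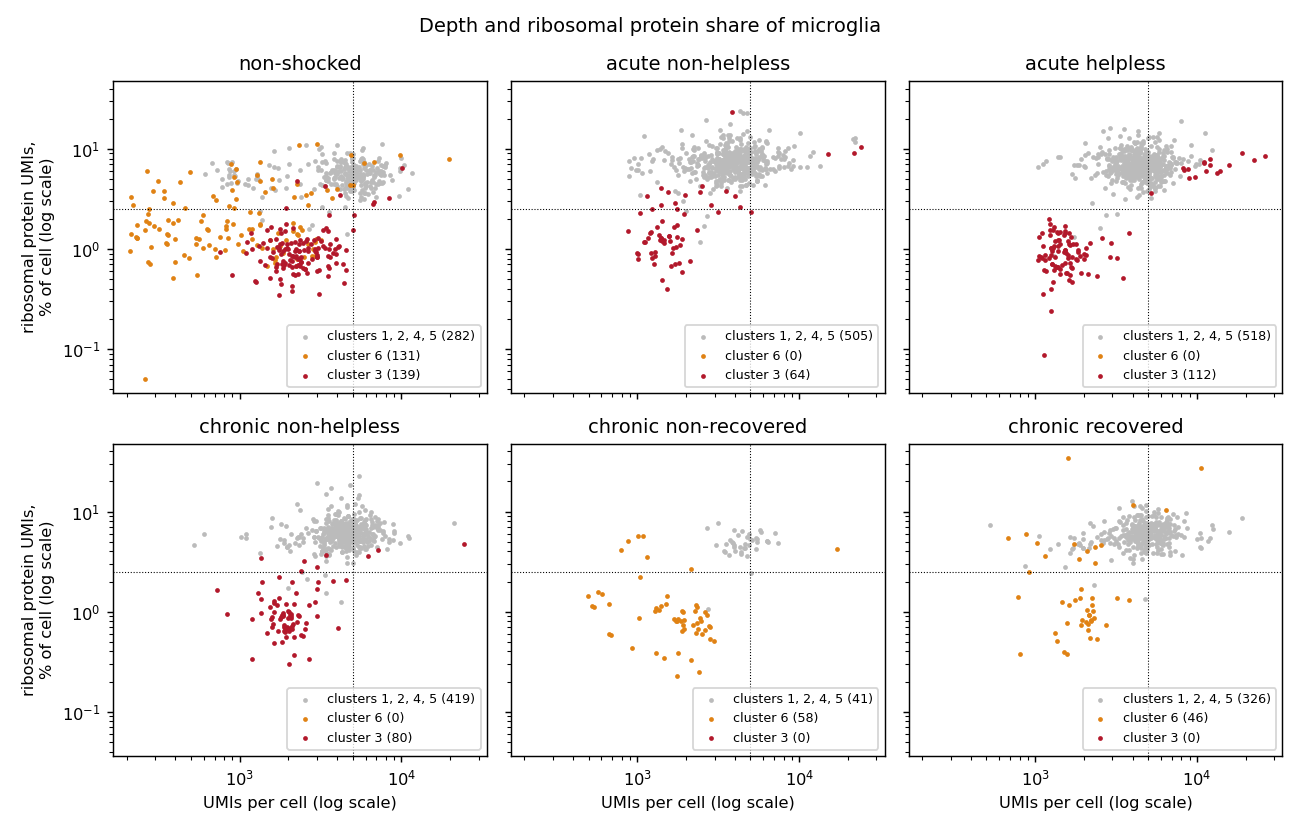
Ribosomal protein share (percent of UMIs, log axis) against UMIs per cell (log axis) for the microglia of each library, with cluster 3, cluster 6 and the other clusters in separate colours; a cell at 0% is drawn at 0.05, and dotted lines mark 2.5% and 5000 UMIs. Cluster 3 forms a low band under 2.5% in 4 libraries, 344 of 395 cells, and cluster 6 fills the same place in the chronic non-recovered and recovered libraries.

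Mitochondrially encoded transcripts, read as a sign of RNA quality, summed to 2.06%, 1.71%, 1.94% and 1.36% of UMIs in cluster 3 and to 1.13%, 1.45%, 1.28% and 1.16% in the others. The summed share was higher in cluster 3 in each library, by 0.937, 0.262, 0.658 and 0.199 percentage points. The median per cell went the other way in the acute non-helpless library, at 0.942% against 1.36%. All 13 mitochondrially encoded genes had a ratio above 1 over the libraries, with a median log2 ratio of 0.59, and 0 of 13 reached 2-fold. The part of RNA quality or depth in the results below was not tested.

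Gene levels were compared as counts per 1000000 summed UMIs (CPM) of cluster 3 and of the other microglia of the same library, joined over library and batch as a Mantel-Haenszel ratio. In the non-shocked library the others include its 131 cluster 6 cells, mostly of batch 2, which the ratio weighs little and the levels by library pool. Of 7116 genes with enough counts (a mean of at least 20 CPM and at least 30 UMIs), 1032 were at least 2-fold higher in cluster 3 (14.5%) and 267 at least 2-fold lower (3.75%). Without the 30 deep barcodes it was 1672 (23.2%) and 890 (12.3%) of 7222 genes. The median log2 ratio of all genes was 0.22, so a list near that value lies with the bulk of genes. Scaling by median-of-ratios size factors moved that median to -0.14 and the split to 371 higher and 903 lower. The genes nearest the 2-fold line were Pom121 and Wdr41 just inside and Copa and Mief1 just outside.

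Over the libraries, ribosomal protein genes were the lowest of the gene lists. All 85 measured of 88 listed had a ratio below 1, 58 were at least 2-fold lower (3.75% of all genes were), and the median log2 ratio was -1.07. By library the median was -2.06, -0.60, -0.65 and -1.78 in library order, the acute libraries being nearest 0. In both acute libraries proliferation genes lay lower, at -0.74 in the non-helpless and -0.89 in the helpless. Class II presentation genes also lay lower in the acute non-helpless library, at -0.70. Without the deep barcodes 83 of 85 were at least 2-fold lower and the median was -2.40. Rps29, a protein of the small subunit, stood at 288, 1864, 1790 and 508 CPM in cluster 3 and at 2166, 3669, 3016 and 2661 CPM in the others. Rplp1, a protein of the large subunit's stalk, stood at 269, 1410, 1265 and 335 CPM against 1530, 2380, 2092 and 1882 CPM. Both were lower in cluster 3 in each library, most in the non-shocked and the chronic non-helpless. Over the libraries the genes ranged from 1.18 times lower (Rpl22l1) to 2.64 times lower (Rps20). Many ribosomal protein genes have near-identical processed copies, so their values are uncertain to the extent that the authors' counting split reads between copies.

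These genes are known for a run of pyrimidines at the start of the mRNA, the terminal oligopyrimidine motif, through which their translation is regulated together. The windows below, from RefSeq on GRCm38.p6, run from 25 bases before to 15 after the annotated start of 4 ribosomal protein genes at 2.44 to 2.60 times lower in cluster 3. They are shown because these genes were low together, and capitals mark matches to CTTTC, and equally to CTTTT, and equally to CTTCC, on the strand of the gene.
Rpl27, chr11:101442220-101442259, plus strand: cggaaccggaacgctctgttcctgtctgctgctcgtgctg
Rpl39, chrX:37085208-37085247, minus strand: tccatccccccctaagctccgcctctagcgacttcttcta
Rpl35, chr2:39005117-39005156, minus strand: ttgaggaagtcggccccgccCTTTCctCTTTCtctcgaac
Rps12, chr10:23787195-23787234, minus strand: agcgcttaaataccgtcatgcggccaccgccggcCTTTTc
Of 66 ribosomal protein genes with a window, 32 held a match on the strand of the gene (48.5%) and 17 on the other strand (25.8%). Among all 5650 tested genes with a window 19.8% held one, and among all 27025 promoters of the RefSeq set, 17.5%. Translation factors held one in 6 of 22 windows. A match is a description of these letters, and Rpl27 and Rpl39 were as low as Rpl35 and Rps12 without one.

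Of 28 translation factors, 5 were at least 2-fold lower, beside 3.75% of all genes, and 0 higher, with a median log2 ratio of -0.50 (-0.95 without the deep barcodes). They included the elongation factor Eef1a1, 2.13 times lower, the ribosome-associated Btf3, 2.43 times lower, and the translation factor Eif5a, 2.28 times lower. Of 25 nuclear genes of oxidative phosphorylation, 9 were at least 2-fold lower, against the same 3.75%, and 0 higher, with a median of -0.97 (-1.79 without the deep barcodes). Ndufa2, a subunit of complex I, stood at 13.7, 59.0, 87.0 and 40.7 CPM against 126, 168, 169.8 and 133 CPM and was 2.92 times lower. It was lower in each library and most in the non-shocked one. The mitochondrially encoded genes of the same chain had a positive median, as given above, so the nuclear and the mitochondrial genes of the chain lay on opposite sides of 1.

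**Figure D2:**
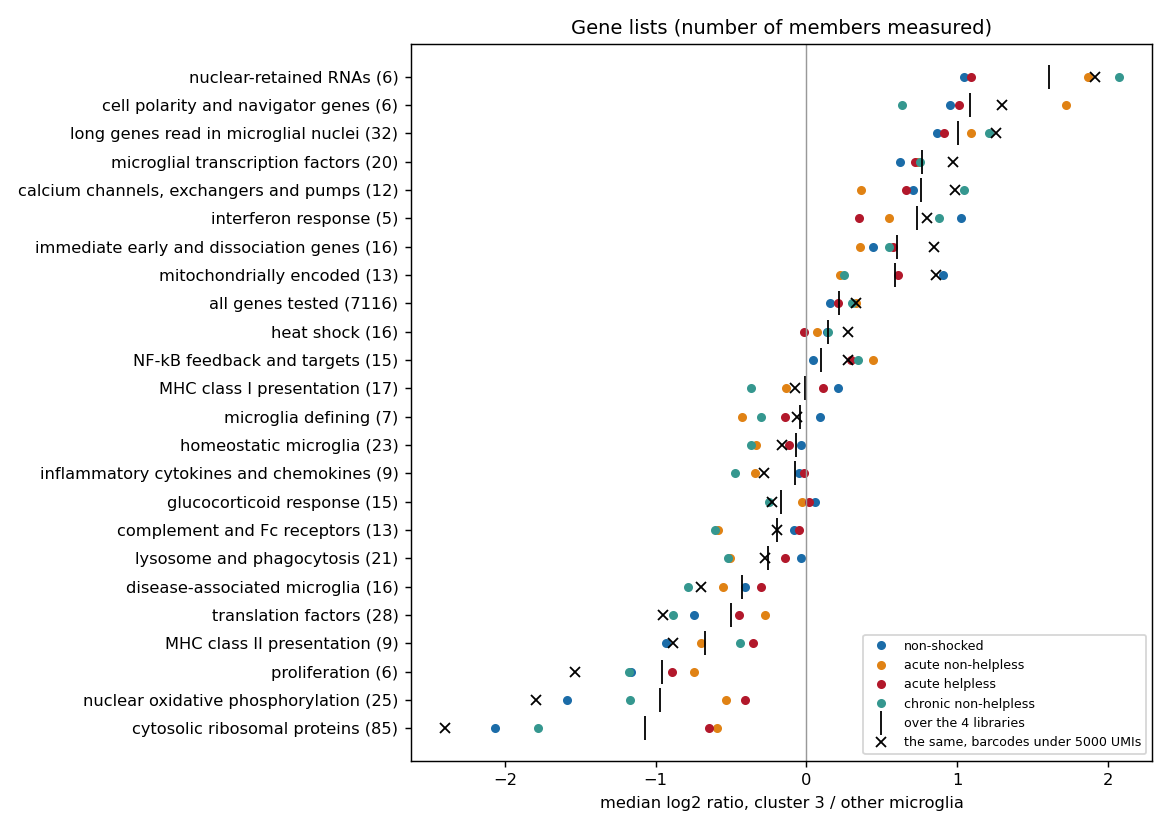
Median log2 ratio of cluster 3 to other microglia (horizontal axis) for gene lists with at least 5 measured members, with dots for the 4 libraries and a bar for the ratio over them. A cross gives the same without the cluster 3 barcodes of 5000 UMIs or more. Of the lists drawn, nuclear-retained RNAs sit highest at 1.61 and ribosomal proteins lowest at -1.07, with all genes at 0.22; neutrophil markers are left out because 1 barcode holds 2088 of the 2212 UMIs of its library.

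RNAs retained in the nucleus were higher in cluster 3. Of 17 listed, 6 passed the filter on low values, which a gene can pass through either group alone, and these 6 were each at least 2-fold higher, beside 14.5% of all genes, with a median log2 ratio of 1.61. Malat1, a noncoding RNA of nuclear speckles, stood at 30429, 34731, 18380 and 34908 CPM in cluster 3 against 12624, 9856, 8411 and 9740 CPM in the others. It was higher in each library, least in the acute helpless one, and 2.98-fold higher over the libraries. Neat1, the scaffold RNA of paraspeckles, was 2.44-fold higher, Pvt1 3.13-fold, Jpx, an activator of Xist, 2.64-fold, and Kcnq1ot1, the imprinted antisense RNA of Kcnq1, 3.96-fold. The labels do not state whether counting used strand, so whether reads of Kcnq1ot1 and Kcnq1 were kept apart is not known here.

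The 4 marker genes were higher in cluster 3 with 1 exception. Slc8a1 stood at 469, 112, 160 and 91.5 CPM in library order, against 90.8, 21.9, 45.6 and 20.7 CPM in the others. The level itself differed between libraries in both groups of cells, while the fold was alike, at 5.17 (conditional exact 95% interval 4.10 to 6.52), 5.11 (2.83 to 8.90), 3.52 (2.51 to 4.88) and 4.42 (2.39 to 7.90). Nav2 stood at 631, 661, 359 and 813 CPM against 172, 131, 105 and 141 CPM, and was 3.66-, 5.04-, 3.44- and 5.78-fold higher. Cacnb2 stood at 129, 100.3, 122 and 127 CPM against 37.8, 28.1, 23.9 and 33.1 CPM, and was 3.41-, 3.57-, 5.12- and 3.84-fold higher. For these 3 genes the interval of the fold lay above 1 in each of the 4 libraries. They were given as markers of a cluster made from these same counts, so that is a description and no support for the markers.

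Pard3b was the weakest of the markers. It stood at 96.0, 29.5, 59.8 and 5.08 CPM, on 35, 5, 22 and 1 UMIs, against 25.2, 4.77, 17.5 and 6.72 CPM in the others. It was therefore higher in 3 libraries and not in the chronic non-helpless one, where a single UMI was counted. Over the libraries Slc8a1 was 4.75-fold higher, Nav2 4.63-fold, Cacnb2 4.32-fold and Pard3b 3.72-fold, and without the deep barcodes 6.16-, 6.02-, 5.65- and 4.36-fold. Cluster 6 carried these genes too. In the chronic non-recovered and recovered libraries Slc8a1 was at 412 and 147 CPM, Nav2 at 797 and 753 CPM, Cacnb2 at 131 and 127 CPM and Pard3b at 87.6 and 19.6 CPM. In the non-shocked library, which holds both clusters, the levels were lower in cluster 6 than in cluster 3, at 133 CPM against 469 for Slc8a1, 458 against 631 for Nav2, 88.6 against 129 for Cacnb2 and 39.4 against 96.0 for Pard3b.

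**Figure D3:**
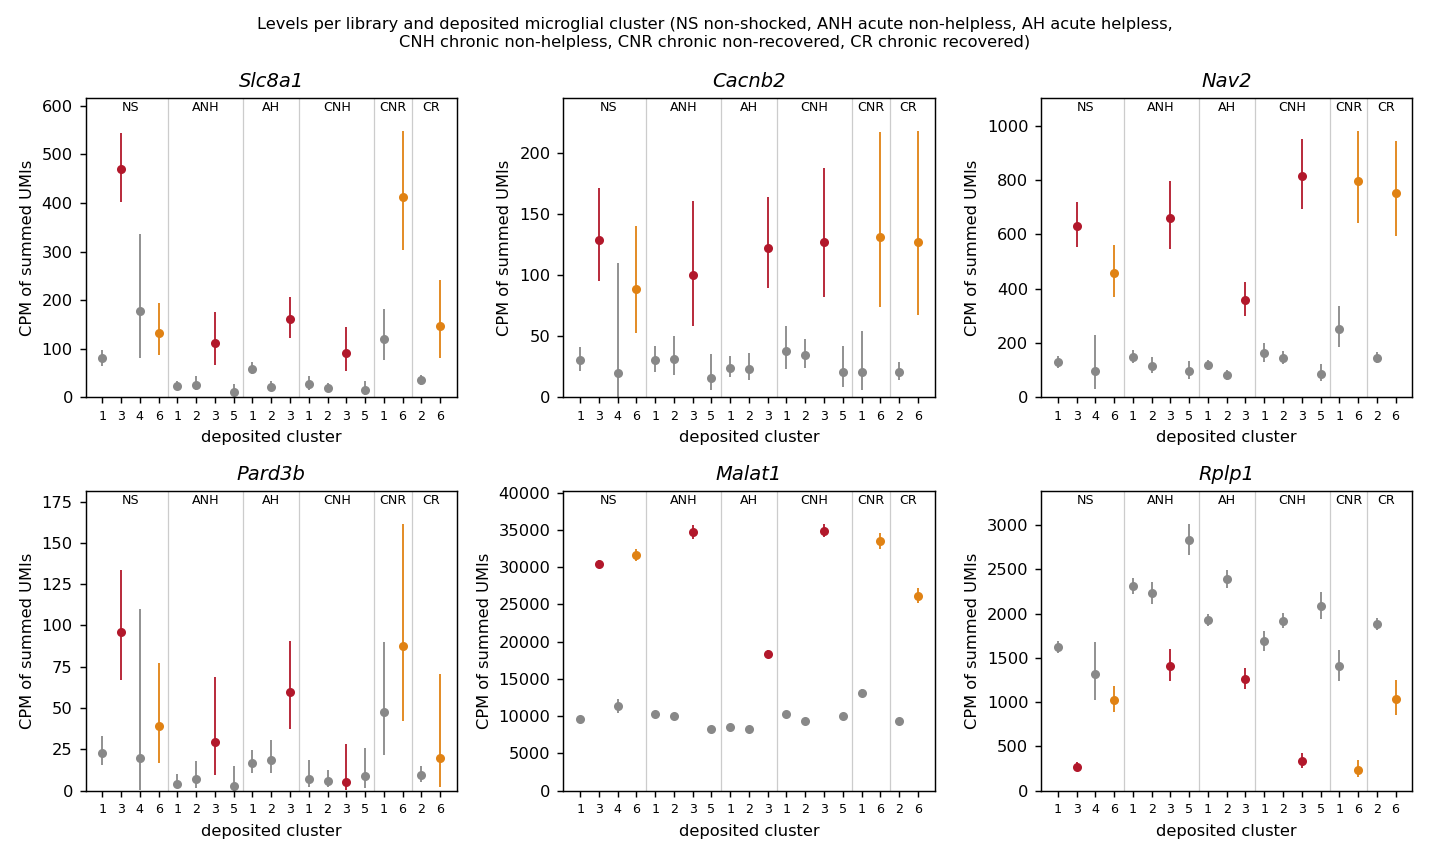
Levels of 6 genes in CPM of summed UMIs (vertical axes) for each library and deposited microglial cluster of at least 20 cells, with exact Poisson 95% intervals as bars, cluster 3 in red, cluster 6 in orange and others in grey. Slc8a1, Cacnb2, Nav2 and Malat1 are high and Rplp1 is low in cluster 3, and cluster 6 lies on the same side; Pard3b rests on 1 UMI in cluster 3 of the chronic non-helpless library.

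The 15 genes with the highest ratios, among those with 1 direction in all but at most 1 of the libraries holding 3 or more UMIs of the gene, had a median genomic span of 135 kb, against 24.2 kb for all genes tested. Lncpint, a noncoding RNA regulated by p53, stood at 74.1, 17.7, 21.8 and 112 CPM against 16.6, 2.38, 2.56 and 12.9 CPM and was 6.19-fold higher. Ank2, an ankyrin that ties membrane proteins to the cytoskeleton, stood at 134, 201, 120 and 244 CPM against 46.4, 32.4, 26.5 and 41.9 CPM and was 4.70-fold higher. Huwe1, a large ubiquitin ligase, stood at 228, 283, 112 and 295 CPM against 64.3, 62.9, 43.1 and 53.2 CPM and was 4.18-fold higher. These 3 genes were higher in each of the 4 libraries. The others were the scaffold Magi1 (4.72-fold), the inositol transporter Slc5a3 (4.63-fold), the chemokine Ccl25 (4.53-fold), AW554918 (4.46-fold), Rbm12b2 (4.98-fold), Ttr (4.22-fold), S100a6, S100a11 and Ccl5, beside Slc8a1, Nav2 and Cacnb2.

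Some of these ratios rest on single barcodes. Of 66 UMIs of S100a6 in cluster 3, 45 were in 1 barcode, as were 27 of 39 of S100a11 and 52 of 118 of Ccl5, a chemokine of T and NK cells. S100a11 was at 0.961 of the level of the others without the deep barcodes. Ttr, the transthyretin of the choroid plexus, had 16 of its 52 UMIs in 1 barcode. Of the 15 genes, 11 were higher in each of the 4 libraries, and 14 of 15 were higher without the deep barcodes.

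The 15 genes with the lowest ratios had a median span of 10.1 kb. They included proteins of the mitochondrial ribosome (Mrpl14, 3.80 times lower, and Mrps16, 3.43 times lower), subunits of complex I (Ndufa2 and Ndufc1, 2.71 times lower), the tricarboxylic acid cycle enzyme Idh3a (2.98 times lower) and the mitochondrial superoxide dismutase Sod2 (2.75 times lower). Mrps16 stood at 13.7, 17.7, 13.6 and 25.4 CPM in cluster 3 against 49.7, 50.5, 58.0 and 67.2 CPM in the others, lower in each library. The class II molecule genes H2-Aa and H2-Eb1 were 5.39 and 3.05 times lower over the libraries. H2-Aa stood at 5.49, 23.6, 0 and 10.2 CPM, on at most 4 UMIs a library, against 57.7, 42.9, 37.1 and 6.20 CPM, so it was not lower in the chronic non-helpless library. Of the 15 genes, 13 were lower in each of the 4 libraries, and all 15 kept their direction without the deep barcodes.

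**Figure D4:**
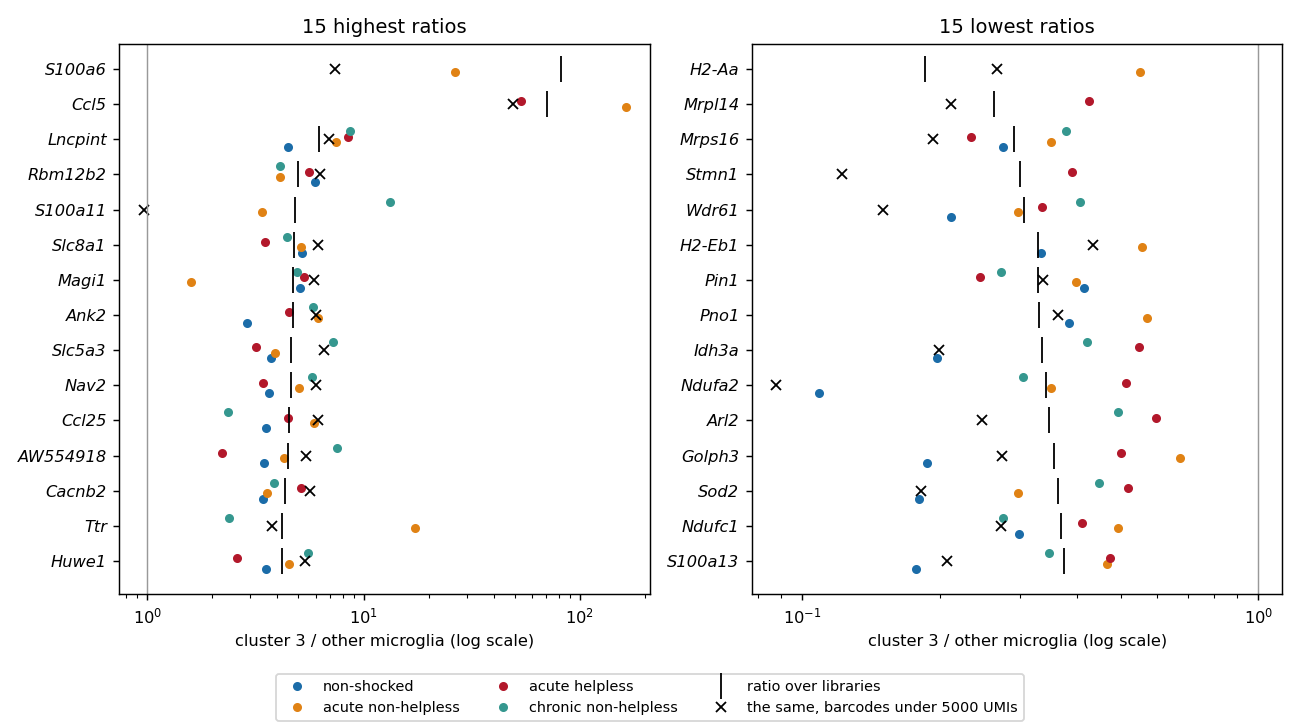
Ratio of cluster 3 to other microglia (log axis) for the 15 highest and the 15 lowest genes, with dots for libraries where both groups have at least 3 UMIs and a bar for the ratio over libraries. A cross gives the same without the cluster 3 barcodes of 5000 UMIs or more. Most crosses lie farther from 1 than the bars; S100a11 moves to 0.961.

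The ratio varied with the size of the gene. The clustering did not use that size, but it did use the counts behind the ratio. Across 7052 genes the Spearman correlation of log2 ratio and genomic span was 0.56 (0.55 without ribosomal protein and mitochondrially encoded genes), a description over genes that share libraries and depth. It was 0.49, 0.46, 0.45 and 0.50 in library order. Longest transcript length gave 0.63 and exon number 0.46. Transcript length gave 0.52, 0.54, 0.53 and 0.56 in library order, above span in each. The bins below use span alone. Of 810 genes spanning under 5 kb, 2.22% were at least 2-fold higher and 16.5% lower, with a median log2 ratio of -0.45. Of 264 genes spanning over 200 kb, 53.0% were at least 2-fold higher and 0% lower, with a median of 1.04. The higher genes had a median span of 68.7 kb and the lower ones of 4.84 kb.

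**Figure D5:**
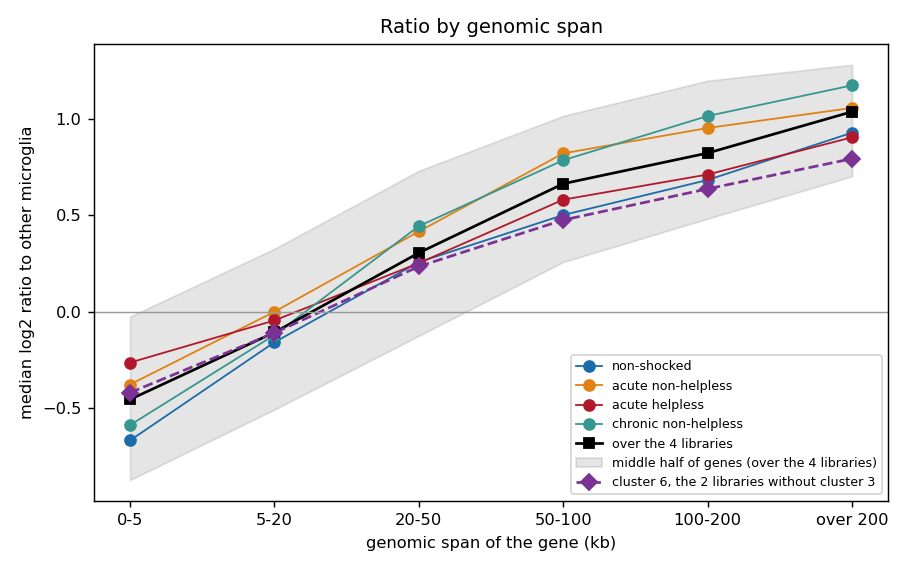
Median log2 ratio of cluster 3 to other microglia (vertical axis) in bins of genomic span in kb, for each library, over the 4 libraries with the range between quartiles shaded, and for cluster 6 in the 2 libraries without cluster 3. The median runs from -0.45 under 5 kb to 1.04 over 200 kb, and each line climbs from bin to bin.

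A list of long genes usually read well in microglial nuclei lay on the same side. Of 38 listed, 32 were measured, 16 were at least 2-fold higher, beside 14.5% of all genes and 53.0% of genes spanning over 200 kb, and 0 lower, with a median log2 ratio of 1.01 (1.26 without the deep barcodes). By library the median was 0.87, 1.09, 0.91 and 1.21. Srgap2, a regulator of cell protrusions, stood at 1490, 1357, 966 and 1657 CPM against 665, 526, 395 and 642 CPM and was 2.54-fold higher. It was higher in each library. The lipid phosphatase Inpp5d was 2.06-fold higher, the phosphatase Ssh2 2.33-fold, the scaffold Frmd4a 2.18-fold and the histone deacetylase Hdac9 3.06-fold.

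Of 12 measured calcium channels, exchangers and pumps (39 listed), 3 were at least 2-fold higher, namely Slc8a1, Cacnb2 and the Golgi calcium pump Atp2c1 (2.17-fold), with a median log2 ratio of 0.76. Of 6 measured polarity and navigator genes (19 listed), 3 were higher, namely Nav2, Pard3b and Nav3 (2.55-fold), with a median of 1.08. Both lists hold the markers themselves, and the other genes past 2-fold were Atp2c1 and Nav3, beside 14.5% of all genes.

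Of 20 transcription factors of microglia, 6 were at least 2-fold higher, beside 14.5% of all genes, and 0 lower, with a median log2 ratio of 0.76. The 6 were Smad3, which carries TGF-beta signals (3.04-fold), Tcf12 (2.63-fold), Bach2 (2.39-fold), Runx1 (2.35-fold), Ets1 (2.18-fold) and Zfhx3 (2.02-fold). Among them Zfhx3, Tcf12 and Runx1 span over 200 kb, where 53.0% of all genes were at least 2-fold higher. Ets1 spans 122 kb, and of genes spanning 100 to 200 kb 37.5% were. Runx1 stood at 403, 389, 343 and 351 CPM against 173, 138, 148 and 185 CPM, higher in each library. The myeloid factors Spi1, at 0.732 of the level of the others, and Irf8, at 0.861, were lower in each library.

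The identity genes fitted the microglia label. The 7 defining genes were detected in cluster 3, and they summed to 4.55%, 2.85%, 3.70% and 3.51% of its UMIs against 4.34%, 3.91%, 4.10% and 4.81% in the others. Of 395 cells, 3 had under 0.5% of UMIs on these genes. None of the 7 was 2-fold apart. P2ry12 stood at 4763, 3404, 4978 and 3532 CPM against 7124, 6238, 6566 and 7990 CPM, at 0.620 of the level of the others and lower in each library. Csf1r was at 1.37 times that level, Cx3cr1 at 1.00 and Tmem119 at 0.806. Of 23 measured homeostatic genes, 0 were 2-fold apart, and the median log2 ratio was -0.07 (-0.39 with size factors). They ran from Cst3, a secreted protease inhibitor, at 0.567, to Mertk, a receptor for apoptotic cells, at 1.95.

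The counts of activation, stress and cell cycle genes that follow stand beside 14.5% of all genes at least 2-fold higher and 3.75% lower. Of 16 genes of disease-associated microglia, 2 were lower, the adaptor Tyrobp (2.14 times) and the ferritin chain Fth1 (2.42 times), with a median log2 ratio of -0.43. Of 21 lysosomal and 13 complement and Fc receptor genes, 0 were 2-fold apart, with medians of -0.25 and -0.19. Of 9 class II presentation genes 4 were lower (Cd74, H2-Ab1, H2-Eb1 and H2-Aa), with a median of -0.67, and of 17 class I genes 1 was lower, Psmb10 (2.18 times), with a median of -0.01. Of 9 inflammatory cytokines and chemokines 1 was higher, Ccl5, with a median of -0.07. Of 15 NF-kB genes 2 were higher, Nfkbiz (2.57-fold) and Rel (2.01-fold), with a median of 0.10 that changed sign with size factors, to -0.28. Of 5 measured interferon genes 1 was higher, Stat2 (2.52-fold), with a median of 0.73.

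Of 16 immediate early genes, which also respond to tissue dissociation, 2 were higher, Fosb (3.69-fold) and Atf3 (2.12-fold), with a median log2 ratio of 0.60. Fosb stood at 137, 189, 16.3 and 152 CPM against 24.5, 77.7, 5.97 and 34.1 CPM. It was higher in each library, and low in both groups of cells of the acute helpless one. Of 16 heat shock genes 1 was higher, Hsph1 (2.06-fold), and the median of 0.14 changed sign with size factors, to -0.14. Of 15 glucocorticoid response genes 1 was lower, the metallothionein Mt1 (2.14 times), with a median of -0.17. Of 6 measured proliferation genes 3 were lower (Tubb5, H2afz and Stmn1), with a median of -0.96, while Mki67 and Top2a had 0 UMIs in cluster 3.

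Most markers of other brain cell types had 0 UMIs in cluster 3. All 10 markers of oligodendrocyte precursors had 0 UMIs, as did 23 of 30 neuronal, 11 of 15 astrocytic, 9 of 14 oligodendrocytic and 9 of 15 endothelial and mural markers, among them Gad1, Gfap, Aqp4, Mog and Cldn5. Summed neuronal markers stood at 54.9, 442, 46.2 and 45.7 CPM in cluster 3 against 59.0, 204, 18.8 and 27.9 CPM. The acute non-helpless library stood apart in both groups of cells, and all 66 UMIs of Dlgap1 in cluster 3 came from it. Astrocytic markers summed to 203 to 359 CPM against 148 to 240 CPM, with 280 of 283 UMIs on Slc1a3. Oligodendrocytic markers summed to 360 to 568 CPM against 387 to 462 CPM, and endothelial and mural ones to 330 to 501 CPM against 580 to 653 CPM. Choroid plexus markers summed to 0 to 152 CPM against 0 to 63.1 CPM, and red cell markers to 0 to 45.7 CPM against 0 to 38.4 CPM.

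Markers of border-associated macrophages were higher, at 650, 490, 533 and 752 CPM against 345, 281, 336 and 376 CPM, with 5 of 12 at 0 UMIs, among them Lyve1 and Cd163. Stab1, a scavenger receptor, held 600 of the 664 UMIs. Neutrophil markers summed to 433, 454, 253 and 11243 CPM against 294, 219, 178 and 284 CPM, and 1 chronic non-helpless barcode of 24381 UMIs held 2088 of the 2212 UMIs of its library. Markers of NK cells summed to 13.7, 743, 92.5 and 0 CPM against 27.8, 19.5, 12.8 and 19.1 CPM. Of the 126 such UMIs in the acute non-helpless library, 59 were in a barcode of 3851 UMIs. T cell markers summed to 68.6, 401, 188 and 91.5 CPM against 69.6, 86.8, 67.4 and 77.0 CPM. Monocyte markers summed to 30.2, 212, 49.0 and 417 CPM against 20.6, 26.2, 12.4 and 31.0 CPM. B cell markers were lower, at 142 to 209 CPM against 291 to 408 CPM. The part of these barcodes in the ratios was not tested beyond leaving out the deep ones.

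Cluster 6 of the chronic non-recovered and recovered libraries was also set against the other microglia of those libraries. It was made from these same counts and taken up because its cells were most like cluster 3. Likeness to cluster 3 in the values below is therefore a description and no support. In that comparison 1008 of 6946 genes were at least 2-fold higher (14.5%) and 641 lower (9.23%). Without the cluster 6 barcodes of 5000 UMIs or more, it was 1312 and 940 of 6904 genes. The other microglia kept theirs here too. Neutrophil markers summed to 60118 CPM in cluster 6 of the non-recovered library and to 313 CPM in that of the recovered. In the non-recovered library 1 barcode held 17107 of the 114125 UMIs of cluster 6. The part of such barcodes in the values below was not tested beyond leaving out those of 5000 UMIs or more. Across 6599 genes the log2 ratios of the cluster 3 and the cluster 6 comparison had a Spearman correlation of 0.71, over genes that share the protocol. The medians of 4 lists lay on the same side as in cluster 3, at 1.51 for nuclear-retained RNAs, 0.92 for long genes, -0.54 for ribosomal proteins and 0.94 for mitochondrially encoded genes. Without the cluster 6 barcodes of 5000 UMIs or more, nuclear-retained RNAs were at 1.63, long genes at 1.12 and ribosomal proteins at -1.56. Other lists, with all barcodes, lay on opposite sides of 0, at 0.48 in cluster 6 against -0.96 in cluster 3 for proliferation genes, -0.23 against 0.10 for NF-kB genes, -0.11 against 0.14 for heat shock genes and 0.24 against -0.01 for class I genes. Of the 15 highest genes of cluster 3, 14 were higher in cluster 6 and 12 at least 2-fold, but only 10 of the 15 had enough counts there. Of the 15 lowest, 13 of which had enough counts, 11 were lower and 6 at least 2-fold. Cd74, the class II invariant chain, was 14.4-fold higher in cluster 6 and 2.41 times lower in cluster 3, while the medians of the class II list were -0.69 and -0.67. In cluster 6 Cd74 had 2 UMIs in the non-recovered library and 82 in the recovered.

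Between conditions, cluster 3 could be compared as 1 library against 1, with no replicate check. Among 3603 genes with at least 30 UMIs, 233 were at least 2-fold higher in the acute helpless than in the acute non-helpless library (6.47%) and 213 lower (5.91%). The other microglia had 170 and 50 of the same genes past 2-fold, and 116 higher genes were shared, 49.8% of those of cluster 3 and 68.2% of those of the others. Of the lower genes 23 were shared, 10.8% of those of cluster 3 and 46.0% of those of the others. Fkbp5, a chaperone induced by glucocorticoids, stood at 375 CPM (138 UMIs) against 64.9 CPM (11 UMIs) in cluster 3, a 5.78-fold difference (3.13 to 11.9), and was 8.44-fold apart in the other microglia. Ddit4, an inhibitor of mTOR signalling, was 6.93-fold higher (4.73 to 10.6) and 3.48-fold in the others. Cebpb, a transcription factor of inflammatory genes, was 13.7-fold higher (5.76 to 42.9) and 12.7-fold in the others. Lamp1, a lysosomal membrane protein, was 6.11-fold higher (1189 against 195 CPM) and 7.005-fold in the others. The non-shocked library was also high in Lamp1, at 977 CPM in cluster 3. The acute non-helpless library lay 5.02 times below the non-shocked one in cluster 3 and 5.76 times in the others. For these 4 genes the other microglia differed in the same direction, and the pair also differs in batch. Without the deep barcodes Ddit4 was 4.36-fold and Lamp1 3.88-fold higher in cluster 3.

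Cd68 and Dusp1 were farther apart in cluster 3 than in the other microglia of the same pair, a difference that was not tested. Cd68, a lysosomal protein of phagocytes, was 2.56-fold higher in the acute helpless library in cluster 3 (2.00 to 3.32) and 1.36-fold in the others. Dusp1, a phosphatase of the MAP kinases, was 4.75 times lower (2.94 to 7.88), on 26 against 57 UMIs, and 2.63 times in the others. Without the deep barcodes Dusp1 was 3.24 times lower in cluster 3, nearer the others, and Cd68 2.73-fold higher. Fosb was 11.6 times lower (4.77 to 33.8), on 6 against 32 UMIs (7.26 times without the deep barcodes), and 13.01 times in the others. Of 15 immediate early genes 5 were lower and 0 higher, with a median log2 ratio of -0.70 in cluster 3 and -0.69 in the others.

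Against the non-shocked library, which all of the following pairs share, the acute helpless library had 488 of 4739 genes at least 2-fold higher in cluster 3 (10.3%) and 443 lower (9.35%). The acute non-helpless library had 361 of 3727 higher (9.69%) and 393 lower (10.5%). Ribosomal protein genes were 77 of 83 higher in the acute helpless pair, with a median log2 ratio of 1.82, but without the deep barcodes the median was -0.18. In the acute non-helpless pair 79 of 82 were higher, with a median of 1.99 and of 1.41 without the deep barcodes. In the other microglia the medians were 0.40 and 0.55. Without the deep barcodes, 17 of them in the acute helpless library, that pair had 123 higher and 173 lower genes of 3225 tested.

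The chronic non-helpless and non-shocked libraries share batch 3, and the comparison was kept to it. Of 3876 genes, 183 were at least 2-fold higher (4.72%) and 270 lower (6.97%) in the chronic non-helpless library. Of 14 heat shock genes 8 were higher and 0 lower, with a median log2 ratio of 1.10 (0.99 without the deep barcodes), against 0.68 in the other microglia. Hsph1, a co-chaperone of Hsp70, stood at 137 CPM (27 UMIs) against 13.8 CPM (5 UMIs), 9.95-fold higher (3.78 to 33.1), and was 6.70-fold higher in the others. Dnaja1, another co-chaperone, was 3.35-fold higher (2.16 to 5.29) and 2.297-fold in the others. Hspa1a, an inducible Hsp70, was 5.10-fold higher (2.64 to 10.5) and 8.51-fold in the others. The direction was thus shared by both groups of cells.

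Among the lower genes of that pair, Slc8a1 was 5.16 times lower (3.17 to 8.91) in the chronic non-helpless library and 4.13 times in the other microglia. Lamp1 was 7.41 times lower (4.98 to 11.5) and 6.04 times in the others. Egr1, an immediate early transcription factor, was 3.55 times lower (2.62 to 4.92) and 4.28 times in the others. Of 270 lower genes 161 were also lower in the other microglia, 59.6% of those of cluster 3 and 64.1% of those of the others. Of the higher genes 5 were shared, 71.4% of the 7 of the others and 2.82% of those of cluster 3 that were counted in both. Kcnq1ot1 went apart, at 290 CPM (57 UMIs) against 119 CPM (43 UMIs), 2.44-fold higher (1.62 to 3.72) in cluster 3 and at 0.936 of the non-shocked level in the others. The mitochondrially encoded genes had a median of -0.56 in cluster 3 and 0.13 in the others.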

How the data were processed

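Hippocampal live CD45+ cells of 6 libraries, 1 per group, were analysed. Per the submitters' processing notes the authors used Cell Ranger 2.2.0, Seurat 2.3.4 and genome build mm10; the labels do not state annotation, cell filters or clustering settings. The deposited raw tables hold UMI counts per gene and cell, and per the file headers the metadata give UMI and gene counts, the authors' batch, cluster, cell type and map coordinates. The deposited UMI count equalled the column sum in all 3005 cells. Normalized and merged tables were not used. Members and gene lists were chosen with earlier results of these data known.

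From there, counts were summed by library and cell class (Python 3.11.15, NumPy 2.4.6, pandas 2.3.3, SciPy 1.17.1), 288 pairs of old and new symbols were merged, and doublets were called per library with Scrublet in Scanpy 1.11.5 on 20 components and kept in the main values. Symbols in a single annotation version with at least 50 UMIs numbered 176. Ratios are Mantel-Haenszel rate ratios with library and batch as strata, so the 1 cluster 3 cell of non-shocked batch 2 weighs little, while per-library CPM pool both batches. Intervals are Poisson, Clopper-Pearson or conditional exact, at 95%. A list median needed 5 measured members. Where a class has 0 UMIs or 0 cells, the limit is that of 3 counts.

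Named genes were the 15 highest and 15 lowest ratios with 1 direction in all but at most 1 of the libraries holding 3 or more UMIs of the gene, the 4 markers, up to 4 list members by UMI count past 2-fold, and the extremes and list members of each pair of libraries; range ends, members below 2-fold and the remaining genes were named after their values were seen. Gene spans come from GENCODE vM21. The ratio was tested on simulated data. Alternatives were other scalings, filters, cell sets, strata, thinning to 500 UMIs and leaving out each library.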

Additional observations from a re-analysis of the deposited data

Results flagged for a closer look

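Cluster 6 microglia of the 2 libraries that have no cluster 3 cells had a low ribosomal protein share outside the main comparison. The median per cell was 0.851% of UMIs in the chronic non-recovered library and 1.202% in the chronic recovered library, near the 0.911 to 1.34% of cluster 3 elsewhere. In the recovered library the share summed over cells was 5.73%, far above its median.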

How the results depend on the processing

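No paired analysis was possible because each group has 1 library and the labels give no replicate numbers. The count of higher genes, 1032, became 371 with size factors, 1718 with cells weighted equally, 1607 against other microglia under 2.5% ribosomal protein UMIs, 1587 and 523 with filters at 5 and 50 CPM and 1672 without the deep barcodes, and ran from 948 to 1267 leaving out 1 library. The count of lower genes, 267, became 903 with size factors, 794 with equal cells, 937 with thinning and 890 without the deep barcodes, and ran from 139 (without the non-shocked library) to 547 (without the acute helpless library). The median log2 ratio of ribosomal proteins, -1.07, became -2.10 with equal cells, -2.06 thinned and -2.40 without the deep barcodes (-1.39 to -0.84 leaving out 1 library). Against other microglia under 2.5% ribosomal protein UMIs it reversed to 0.67, the mitochondrially encoded median to -0.046 and that of oxidative phosphorylation to 0.13. Those other microglia number 78 in non-shocked batch 2, where they face 1 cluster 3 cell and weigh little in the ratio but enter the filter on counts. They number 14 in non-shocked batch 3, 4 in the acute non-helpless, 5 in the acute helpless and 6 in the chronic non-helpless library. They were chosen by their ribosomal protein share and cluster 3 kept its deep barcodes, so the ribosomal median of this setting is no check of the difference. In that setting long genes were at 0.40, homeostatic genes at -0.47 and the correlation with span at 0.18. The long gene median, 1.01, was 0.64 with size factors, 1.24 with equal cells, 1.21 thinned and 1.26 without the deep barcodes, and homeostatic genes were at -0.39 with size factors. The correlation with span was 0.49 at 5 CPM and 0.61 at 50 CPM. The difference in ribosomal protein share, a median of -3.43 percentage points over libraries, became -5.21 without the deep barcodes and -5.12 thinned; the UMI ratio, 0.426, was 0.678 with means; the mitochondrial difference, 0.460 points, was 0.881 thinned. The share of cluster 3 in the non-shocked library was 29.8% among cells of at least 1000 UMIs and 32.2% in batch 3. Between libraries, requiring 50 UMIs gave 138 higher and 86 lower genes for acute helpless over acute non-helpless, 312 and 221 for acute helpless, 207 and 211 for acute non-helpless and 70 and 139 for chronic non-helpless over non-shocked; without the deep barcodes the first pair had 147 higher genes and the second 123 higher and 173 lower; with equal cells the second had 297 and 279. The cause of these moves was not tested. Low depth limits single genes in cluster 3, many of which rest on under 10 UMIs a library.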
